A study of Rattus norvegicus with 33 samples.

Results

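The maturation of the rat prostate after neonatal estrogen exposure was followed by setting 3 arrays of estradiol benzoate (EB) animals at postnatal day (PND) 100 against 4 arrays of EB animals at PND 30. These 7 arrays were chosen by their sample titles from 33 in the series. EB is a long-acting ester of estradiol. Male Sprague-Dawley pups of both EB groups had been injected under the skin with 2.5 mg/kg EB on PND 1, 3 and 5, and none of the animals compared here received adult testosterone and estradiol. The EB PND 100 animals carried 3 empty implants from PND 90, and the EB PND 30 animals carried none. Vehicle-injected controls, with 3 arrays at PND 100 (also with empty implants) and 4 at PND 30, were used to see where EB maturation differed. The 4 EB arrays of PND 145 serve as description only. Each array held RNA of 1 sample, and 3 to 4 litters stood behind each group. Which lobes were taken is not settled, since sample labels give the whole gland and the series title the dorsolateral lobes. Arrays are named by group and replicate, as in EB 1 of PND 100.

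The rodent prostate buds and branches around birth, divides rapidly before puberty and becomes a secretory gland of luminal and basal epithelium in a smooth muscle stroma as testosterone rises. Estrogen given in the first days of life is known to imprint the rodent gland, with blunted growth and, in adults, inflammation and epithelial lesions. The autonomic ganglia that innervate the gland lie against its capsule and can be taken with it. Immune cells are few in a young gland, and lymphocytes, plasma cells and macrophages gather in it when it is inflamed.

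Levels are log2 signals of the brightest probe of a gene, relative to the 75th percentile of the array, so a level of 0 equals that percentile. Levels are compared for 1 probe between arrays, never between probes. The 75th percentile before scaling was 2583 to 4454 on the EB PND 100 arrays and 3862 to 4737 on the EB PND 30 arrays, 62.8% to 68.9% of spots were well above background, and 0 were saturated. Ratios are PND 100 minus PND 30 on the log2 scale, each with the standard error (SE) of a limma fit over all 10 groups, and a gene was called at a Benjamini-Hochberg adjusted p under 0.05 over 23345 genes. Prostate identity was present on all 7 arrays. The homeobox gene Hoxb13 lay at 4.28, 3.49 and 2.42 on the EB PND 100 arrays, against 4.06, 2.42, 3.17 and 3.70 on the EB PND 30 arrays. Probasin (Pbsn), a secreted product best known from the dorsolateral lobes, lay at 4.51 to 5.63 and at 3.58 to 4.57.

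Between PND 30 and PND 100 the EB prostate on average lost transcripts of dividing cells, peripheral nerve and mast cells. It gained transcripts of lymphocytes, plasma cells, macrophages and complement. Not every animal took part. The median level of T cell genes on EB 1 of PND 100 (-5.79) lay inside the PND 30 range. That of nerve genes on EB 1 of PND 30 (-5.86) was as low as in the adults. No mast cell gene was called without EB 2 of PND 100. Of 23345 genes, 1287 were higher (5.51%) and 729 lower (3.12%) at PND 100, together 8.64%. In the vehicle controls 179 genes were higher (0.767%) and 345 lower (1.48%), together 2.24%. Both counts rest on the spread shared by all groups, and their order turned round where each pair of ages was fitted alone. A fit of only the control arrays of these ages called 2243 genes. A fit of only the 7 EB arrays called 6 genes (0.0257%), 2 higher (0.00857%) and 4 lower (0.0171%). These were the phospholipase Pla2g2a and LOC108348215 higher, and Aard, the neurotrophic receptor Ret and 2 unnamed probes lower, with 4000 genes at an unadjusted p under 0.05. All 6 were also called in the fit of 33 arrays. Of 99 genes named below and called, 55 kept the call without EB 2 of PND 100, 63 without EB 3 and 90 without EB 1, and 76 to 87 without 1 array of EB PND 30. The median SD of a gene was 0.51 in EB PND 100 and 0.43 in EB PND 30, against 0.26 and 0.30 in the controls of these ages. Correlations between arrays were 0.911 to 0.948 within EB PND 100 and 0.937 to 0.981 within EB PND 30. The median ratio of all genes was 0.14, and that of the controls 0.03. Quantile scaling (median 0.02) called 1017 genes higher and 1010 lower, and values from the authors' deposited table gave 942 higher and 837 lower, so the share of higher calls was 50.2% and 53.0%, against 63.8% as reported. In this bulk RNA, fewer cells of a type and less RNA per cell cannot be told apart.

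**Figure D1:**
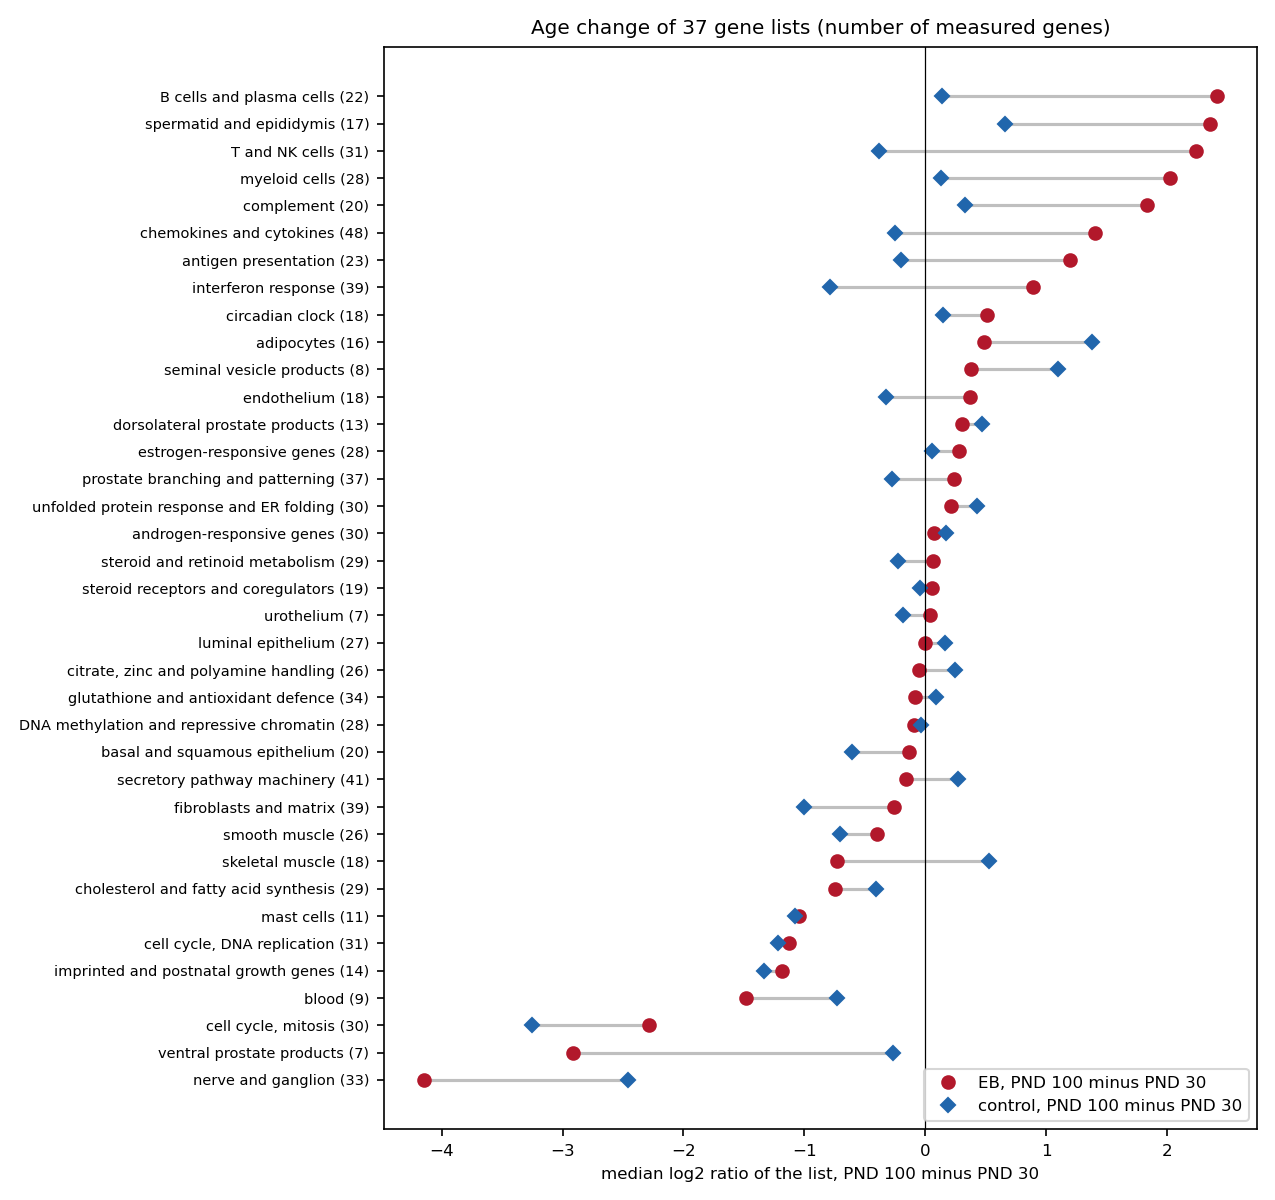
Median log2 ratio, PND 100 minus PND 30, of 37 gene lists in EB animals (red circles) and in controls (blue diamonds), with the number of measured genes in brackets. The immune lists other than mast cells lie at 0.89 to 2.42 in EB and at -0.79 to 0.32 in controls. Mast cells lie at -1.05 in EB and -1.07 in controls, and mitosis lies below -2 in both.

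The fall of cell division was the change EB and control glands had most clearly in common. Mitosis genes fell in EB for 25 of 30 measured members (median ratio -2.29), against 3.12% of all genes, and 0 rose (0 at an unadjusted p under 0.05). In the controls 26 of 30 fell (median -3.25). The EB ratio minus the control ratio was above 0 for 28 of the 30 (median 1.01), a smaller fall in EB. This difference was called by limma for 0, with 5 higher and 0 lower at an unadjusted p under 0.05. DNA replication genes fell for 17 of 31 in EB (median -1.13) and for 18 of 31 in controls (median -1.22). The activator of mitotic exit Cdc20 lay at -2.89, -4.30 and -3.15 in EB PND 100, against -0.83, -1.91, -2.39 and -1.65 in EB PND 30 (ratio -1.75, SE 0.35, adjusted p 0.00418). The helicase subunit Mcm6 lay at -3.63, -3.78 and -3.08 at PND 100, against -0.89, -1.99, -2.05 and -1.91 at PND 30 (ratio -1.78, SE 0.30, adjusted p 0.00107). In both genes every PND 100 array was below every PND 30 array, as in 28 of the 30 mitosis genes. Over all genes, the arrays of the ages did not overlap for 16.4%, with 11.9% higher and 4.46% lower at PND 100.

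The mitotic list fell less evenly among the EB adults than among the control adults. Its median level was -3.25, -5.76 and -3.46 on EB 1, 2 and 3 of PND 100, against -1.63, -2.37, -2.44 and -2.09 at PND 30. The control medians were -5.53, -5.54 and -4.71 at PND 100 and -1.67 to -2.37 at PND 30. Of the 4 mitotic genes with the smallest p, the spindle protein Nusap1 (-2.61, SE 0.44), the cytokinesis kinesin Kif20a (-2.51, SE 0.46) and the kinase Melk (-2.83, SE 0.54) fell together with Cdc20 (adjusted p 0.00107 to 0.00418). Their difference from the control ratios did not pass the test (adjusted p 0.594 to 0.878). Pimreg (-4.11, SE 0.63, adjusted p 4.39e-04) and Depdc1 (-3.87, SE 0.80, adjusted p 0.00494), both mitotic regulators, were among the 10 lowest ratios of genes whose groups did not overlap. Among replication genes, cyclin E1 (Ccne1) had a ratio of -2.06 (SE 0.39), thymidine kinase Tk1 -2.37 (SE 0.48) and the ribonucleotide reductase subunit Rrm1 -0.99 (SE 0.20), all called (adjusted p 0.00241 to 0.00433).

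Without EB 2 of PND 100, 5 mitosis and 6 replication genes were called lower, and without EB 1 of PND 30, 19 and 9. Within slides 1, 2 and 4, which held both groups, the mitosis median was -4.40, -1.60 and -1.25 and the replication median -2.11, -0.75 and -0.60. Each of these slides held 1 array of each age, so every within-slide value is 1 array minus another.

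The promoters of these genes are shown because the 2 lists moved together while differing in the short motifs that are known to mark them. Sequences are RefSeq promoters of build GRCr8, the 250 bases before the annotated start, 5′ to 3′ on the gene's strand. Capitals mark the cell cycle homology region TTTGAA, the CCAAT box (ATTGG on the other strand) and the E2F site TTTNGCGC, searched on both strands with overlaps kept.
Cdc20, chr5:137255800-137256049, minus strand: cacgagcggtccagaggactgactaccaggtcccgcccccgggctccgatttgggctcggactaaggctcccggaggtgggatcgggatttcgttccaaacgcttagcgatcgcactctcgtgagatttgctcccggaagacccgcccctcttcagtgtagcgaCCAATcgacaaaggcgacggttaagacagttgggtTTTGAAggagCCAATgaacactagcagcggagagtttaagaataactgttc
Nusap1, chr3:127057045-127057294, plus strand: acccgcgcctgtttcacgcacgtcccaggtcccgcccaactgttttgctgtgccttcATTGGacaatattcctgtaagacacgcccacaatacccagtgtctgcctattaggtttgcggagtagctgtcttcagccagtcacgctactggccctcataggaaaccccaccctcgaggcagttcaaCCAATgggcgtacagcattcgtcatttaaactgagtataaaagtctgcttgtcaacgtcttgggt
Mcm6, chr13:42404353-42404602, minus strand: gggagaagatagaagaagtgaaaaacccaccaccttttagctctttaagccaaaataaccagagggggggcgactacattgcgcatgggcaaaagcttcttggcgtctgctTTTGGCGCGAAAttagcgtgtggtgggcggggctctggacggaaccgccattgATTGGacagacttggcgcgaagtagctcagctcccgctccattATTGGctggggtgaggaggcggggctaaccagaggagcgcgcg

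In Cdc20 the TTTGAA motif begins 51 bases before the start, between CCAAT boxes that begin at 86 and 41 bases. In Mcm6 a pair of E2F sites on opposite strands overlaps, beginning at 139 and 135 bases, upstream of CCAAT boxes at 86 and 43 bases. The other genes named above were unlike these. Nusap1, Kif20a and Rrm1 held only CCAAT boxes, and Melk, Ccne1 and Tk1 held none of the motifs searched for their list. Of 24 mitosis genes with a promoter in the table, 10 held TTTGAA (41.7%), against 1 of 22 replication genes (4.55%) and 17.2% of 27457 genes. It was nearly as frequent in T and NK cell genes, a list that rose, with 9 of 25 (36.0%). In interferon, antigen presentation, myeloid and nerve genes its share was 9.52% to 16.1%. The E2F site stood in 7 of 22 replication genes (31.8%), against 1 of 24 mitosis genes (4.17%) and 1.17% of all. CCAAT boxes were found in 20 of 24 mitosis genes (83.3%) and 12 of 22 replication genes (54.5%), against 36.1% of all. They also stood in 14 of 20 antigen presentation genes (70.0%), a list that rose. Their share was 20.0% to 47.6% in T and NK cell, interferon, myeloid and nerve genes. These matches describe the letters of this window and show no binding.

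Growth and matrix genes gave few calls, beside a background of 3.12% of all genes lower and 5.51% higher. Of 14 imprinted and postnatal growth genes, 1 fell, the imprinted growth suppressor necdin (Ndn), at -1.59, -2.02 and -0.66 in EB PND 100 and -0.07, 2.14, 1.97 and 1.17 in EB PND 30 (ratio -2.73, SE 0.56, adjusted p 0.00484). EB 1 of PND 30 was the lowest young array for Ndn, as for the nerve genes below. It was lowest for the growth list median too, at -1.14 against 0.30, 0.39 and -0.23 on EB 2, 3 and 4. The fetal growth factor Igf2 (-1.57, SE 0.51, adjusted p 0.0509) and Peg3 (-2.18, SE 0.72, adjusted p 0.0597) just missed the threshold. Of 39 fibroblast and matrix genes, 4 fell and 2 rose. The collagen-binding Sparc (-1.36, SE 0.30, adjusted p 0.00709) and the fibril collagen chain Col5a2 (-1.88, SE 0.49, adjusted p 0.0175) fell. Periostin (Postn, -1.82, SE 0.54, adjusted p 0.0342) and Thy1 (-2.05, SE 0.49, adjusted p 0.0114), which neurons also carry, fell too. Fibulin 1 (Fbln1, 2.31, SE 0.53, adjusted p 0.00871) and the actin-severing gelsolin (Gsn, 1.46, SE 0.42, adjusted p 0.0292) rose. Postn and Gsn were named after their values were seen. Sparc and Col5a2 were called lower in the controls too (-1.83 and -2.54, adjusted p 4.49e-04 and 0.00239). The list median in EB was -0.25, against -1.01 in controls, and it had no settled sign, with 0.07 without EB 2 and -0.79 without EB 3 of PND 100. Without EB 2 of PND 100, 1 member fell, and without EB 3 of PND 30, 2.

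Mast cell and red cell transcripts also fell, where 3.12% of all genes were lower. Mast cell carboxypeptidase (Cpa3) lay at -3.40, -4.45 and -2.93 in EB PND 100, against -2.31, -1.39, -0.49 and -1.14 in EB PND 30 (ratio -2.26, SE 0.51, adjusted p 0.00832). With it fell chymase (Cma1, -2.03, SE 0.50) and the IgE receptor chain Fcer1a (-1.87, SE 0.46), so that 3 of 11 mast cell markers were called lower (adjusted p 0.00832 to 0.0135), and 0 without EB 2 of PND 100. Cpa3 fell in controls by 2.07 as well (adjusted p 0.0247). Of 9 blood markers, 3 fell, among them the heme enzyme Alas2 (-1.96, SE 0.54, adjusted p 0.0229) and the globin Hbb-bs (-1.78, SE 0.52, adjusted p 0.0330). No blood marker was called without EB 2 of PND 100 or without EB 3 or 4 of PND 30, and 1 was without EB 1 of PND 100.

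**Figure D2:**
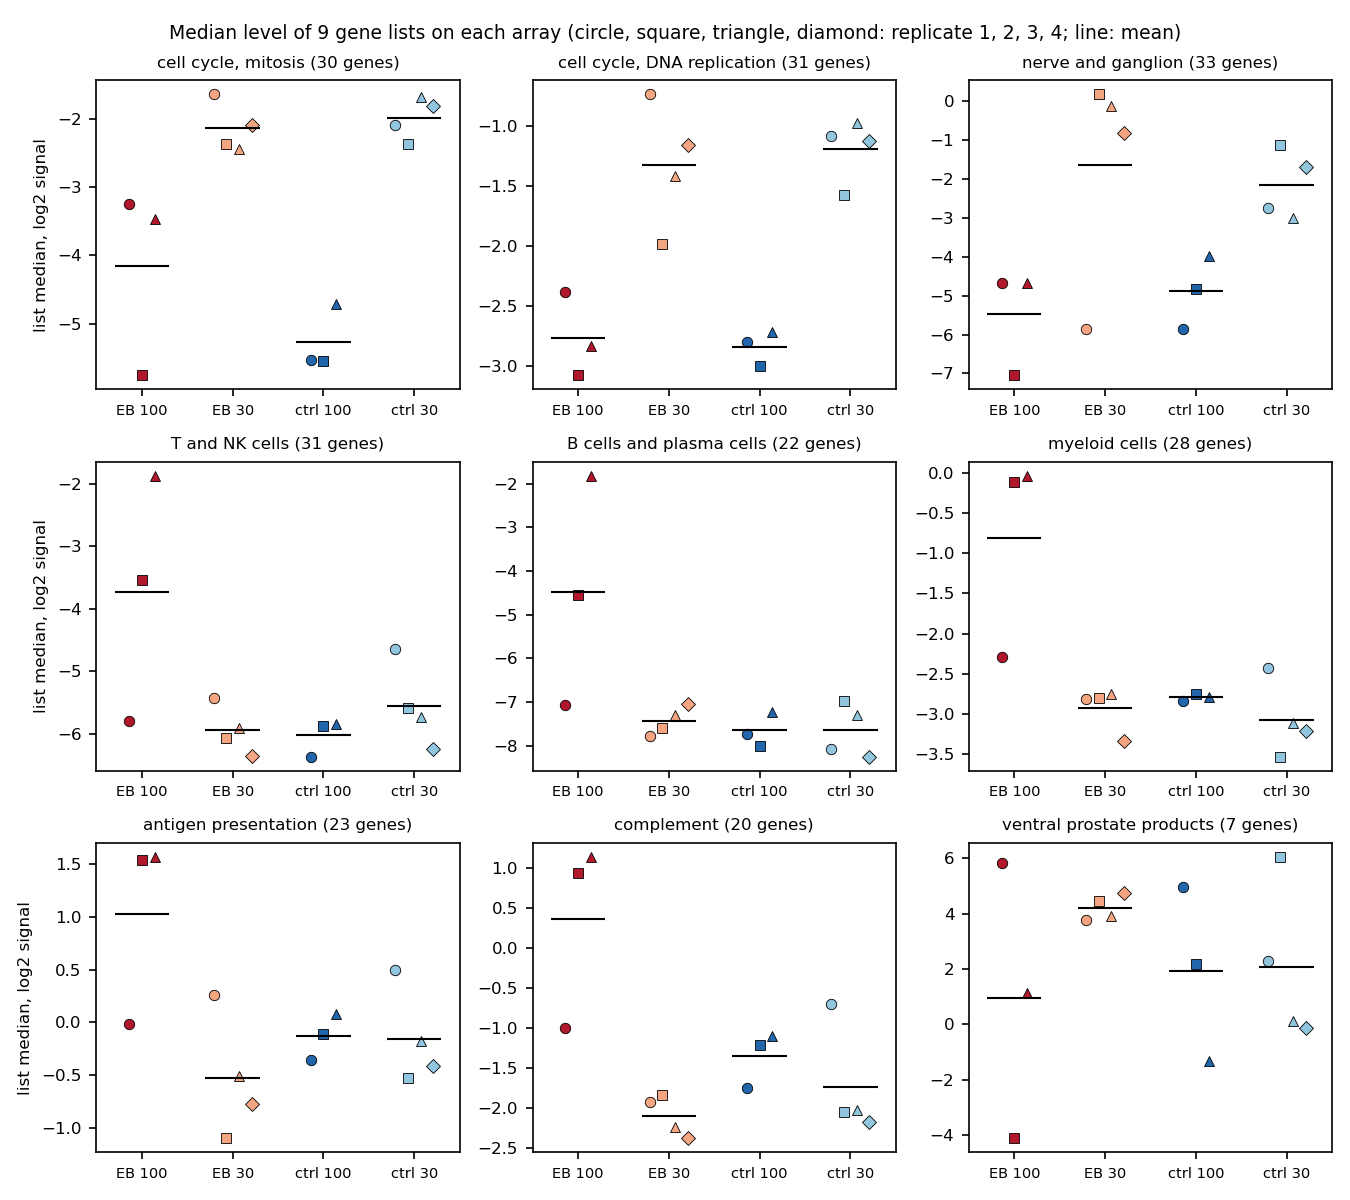
Median log2 signal of 9 gene lists on each array of EB PND 100, EB PND 30, control PND 100 and control PND 30 (symbols are replicates, lines are group means). EB 2 and 3 of PND 100 stand above all other arrays in the T, B, myeloid and complement lists, and EB 1 of PND 30 is the low point of its group for nerve.

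Immune transcripts were gained in EB. T and NK cell genes rose for 21 of 31 members (median ratio 2.24), B and plasma cell genes for 14 of 22 (median 2.42) and myeloid genes for 18 of 28 (median 2.02), against 5.51% of all genes. In controls 0 members of the 3 lists were called by limma, at medians of -0.38, 0.14 and 0.13, with 1 T cell gene each way and 0 B cell or myeloid genes at an unadjusted p under 0.05. The difference between EB and control ratios was called for 0 members of the 3 lists, with 23, 13 and 15 higher at an unadjusted p under 0.05. The 3 EB adults were unlike each other. The T cell median was -5.79, -3.54 and -1.87 on EB 1, 2 and 3 of PND 100, against -5.42, -6.07, -5.90 and -6.36 at PND 30. EB 1 lay inside the PND 30 range and EB 2 and 3 far above it. The B cell median was -7.08, -4.54 and -1.81, against -7.05 to -7.78, and the myeloid median -2.29, -0.11 and -0.03, against -2.76 to -3.34.

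The counts follow these arrays. Without EB 3 of PND 100, 2 T cell, 2 B cell and 5 myeloid genes were called higher, where 3.47% of all genes were called, 1.52% higher and 1.96% lower. Without EB 2 of PND 100 the counts were 5, 11 and 3, and without EB 1 they were 25, 16 and 23. Without EB 2, 3 or 4 of PND 30, 12 to 14 T cell genes were called, and 10 myeloid genes without EB 4 of PND 30. In a fit of the EB and control arrays of both ages alone, the counts were 7, 7 and 12. Within slides 1, 2 and 4 the B cell median was 1.61, 4.92 and 0.50, the T cell median 1.57, 4.01 and 0.61, and the myeloid median 2.50, 2.50 and 0.13. These values again rest on 1 array of each age and carry the same spread between replicates.

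Among T cell genes, the coreceptor Cd4, which rat macrophages also carry, lay at -0.75, 0.53 and 0.91 in EB PND 100, against -1.92, -2.15, -1.61 and -2.38 in EB PND 30. This gave a ratio of 2.24 (SE 0.29, adjusted p 9.75e-05), with no overlap between the groups. The T cell receptor kinase Zap70 (2.89, SE 0.57, adjusted p 0.00349), the receptor Cd6 (2.65, SE 0.60, adjusted p 0.00819) and the receptor chain Cd3g (3.11, SE 0.71, adjusted p 0.00868) rose as well. Cd3g lay at -3.41, -0.51 and 1.02, against -2.99, -4.12, -4.56 and -4.65. EB 1 of PND 100 was inside the PND 30 range for Cd3g.

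Among B and plasma cell genes, all PND 100 arrays lay above all PND 30 arrays for 11 of 22. The same held for 8 of 31 T cell genes, 11 of 28 myeloid genes and 11.9% of all genes. The immunoglobulin joining chain Jchain lay at -1.01, -1.85 and 4.29 in EB PND 100, against -4.85, -5.87, -5.83 and -5.28 in EB PND 30 (ratio 5.94, SE 0.84, adjusted p 2.53e-04). All 3 adults were above all 4 young animals. The B cell gene Fcrla rose by 2.23 (SE 0.49, adjusted p 0.00673). The plasma cell chaperone Mzb1 and the B cell surface protein Ms4a1 (CD20) were not well above background on any PND 30 array. They were at least 3.74-fold and at least 10.4-fold higher (adjusted p 0.00513 and 0.00731), with 1 and 2 of the 3 adult arrays above background. The B cell attractant chemokine Cxcl13 had the highest ratio among genes with a symbol whose groups did not overlap, at -1.67, 1.47 and 0.88, against -5.14, -6.27, -5.82 and -6.98 (ratio 6.28, SE 0.76, adjusted p 3.49e-05). Its ratio in controls was 1.97 (adjusted p 0.206).

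Macrophage genes rose with the complement subunit C1qb (2.17, SE 0.38, adjusted p 0.00154), the lysosomal protein Cd68 (2.56, SE 0.48, adjusted p 0.00241), the Fc receptor chain Fcer1g (2.02, SE 0.38, adjusted p 0.00274) and cathepsin S (Ctss, 1.96, SE 0.41, adjusted p 0.00560). Cd68 lay at -1.78, 0.41 and 0.47 in EB PND 100, against -2.50, -2.97, -2.77 and -3.19 in EB PND 30. The sialic acid receptor Siglec1, a marker of resident macrophages, lay at -1.88, 0.08 and -1.55, against -4.17, -5.13, -4.60 and -5.55 (ratio 3.74, SE 0.64, adjusted p 0.00118). In both genes all adults were above all young animals.

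Antigen presentation genes rose for 12 of 23 (median 1.20), against 5.51% of all genes. The class II invariant chain Cd74 lay at 1.11, 3.77 and 3.96 in EB PND 100, against 0.70, 0.81, 0.53 and -0.12 in EB PND 30 (ratio 2.47, SE 0.48, adjusted p 0.00325). RT1-CE5, RT1-Bb and RT1-DOb, of the rat major histocompatibility complex, rose by 2.63 to 2.79 (SE 0.54 to 0.62, adjusted p 0.00473 to 0.00776), but probes of this family may bind related transcripts. Without EB 2 of PND 100, 2 members were called, without EB 3, 4, and without EB 3 or 4 of PND 30, 6 each. Complement genes rose for 12 of 20 (median 1.83), and for 5 without EB 2 or without EB 3 of PND 100 and 7 without EB 4 of PND 30. C6, of the membrane attack complex, lay at -1.44, -0.62 and -0.41, against -6.26, -5.33, -3.33 and -5.59 (ratio 4.30, SE 0.65, adjusted p 4.21e-04). C4b (4.22, SE 0.64, adjusted p 4.21e-04) and C4a (4.11, SE 0.74, adjusted p 0.00175), which are near-identical copies, rose with C2 (2.56, SE 0.52, adjusted p 0.00433). C6 and C4b were higher on all 3 adult arrays than on all 4 young arrays. Their ratios in controls were 2.03 and 2.09 (adjusted p 0.113 and 0.0910).

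Of 48 chemokines and cytokines 7 rose, against 5.51% of all genes. Among them were Cxcl13, the granulocyte growth factor Csf3 (2.55, SE 0.46, adjusted p 0.00194) and the T cell and monocyte attractants Ccl5 (1.90, SE 0.56, adjusted p 0.0345) and Ccl3 (3.43, SE 1.05, adjusted p 0.0393). Without EB 1 of PND 100, 22 were called, and 2 without EB 2 or without EB 3. Without EB 2, 3 or 4 of PND 30 the count was 4, 2 and 2. Of 39 interferon response genes 3 rose (median 0.89), a share near the 5.51% of all genes. They were the transcription factor Irf8 (2.40, SE 0.59, adjusted p 0.0127), the RNA sensor Ddx60 (3.17, SE 1.01, adjusted p 0.0490) and the antiviral synthetase Oas2, at least 3.10-fold from below background (adjusted p 0.0367). None was called without EB 2 or without EB 3 of PND 100, 6 were without EB 1, and 1 without EB 2 or without EB 4 of PND 30. The promoter of Ddx60 is shown as an example of the interferon-stimulated response element, searched as GAAA, any 2 bases and GAAA on both strands and marked in capitals.
Ddx60, chr16:33208840-33209089, minus strand: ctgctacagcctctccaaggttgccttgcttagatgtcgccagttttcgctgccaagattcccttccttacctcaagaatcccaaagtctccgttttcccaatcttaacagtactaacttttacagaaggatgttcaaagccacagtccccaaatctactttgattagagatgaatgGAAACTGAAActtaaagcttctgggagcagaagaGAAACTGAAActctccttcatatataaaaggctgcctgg

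The same 10 letters, GAAACTGAAA, stood at 73 and at 39 bases before the start. The motif was found in 20 of 31 interferon response genes (64.5%) and 6 of 20 antigen presentation genes (30.0%), against 3.61% of all genes and 0 of 24 mitosis genes. Ddx60 lay at -4.48, -2.32 and -3.78 in EB PND 100, against -7.28, -6.16, -5.28 and -8.06 in EB PND 30.

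**Figure D3:**
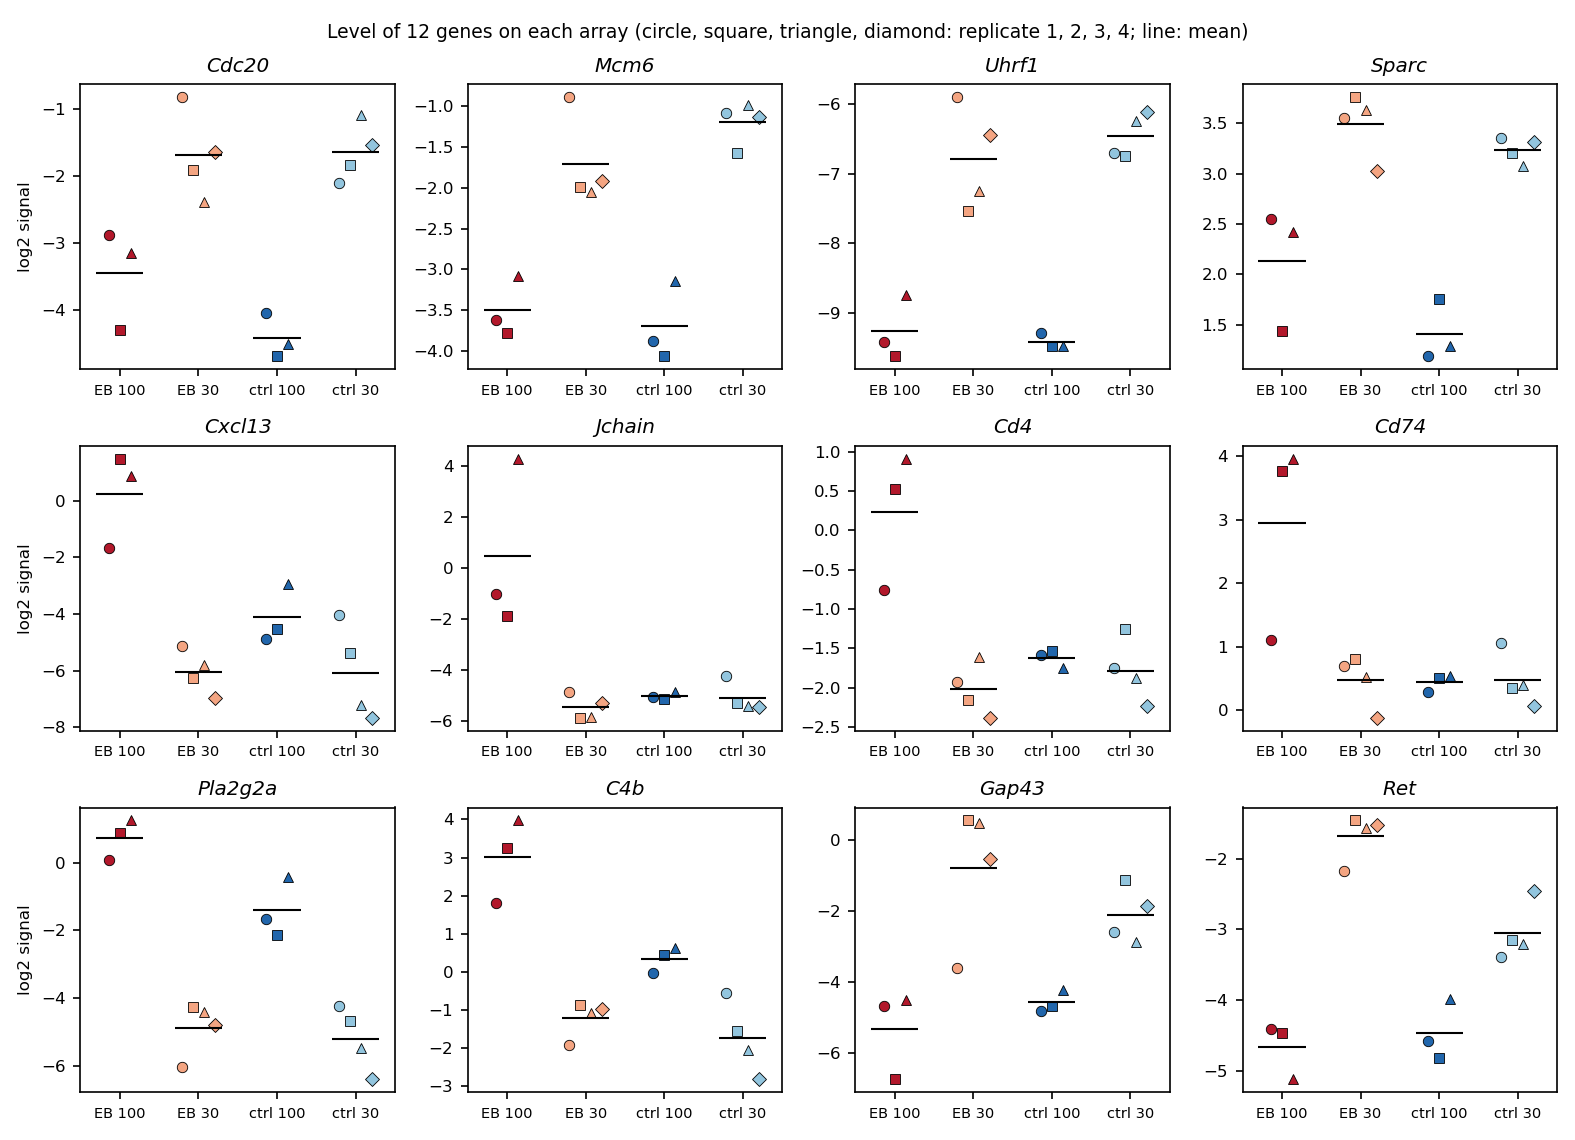
Log2 signal of 12 genes on each array of EB PND 100, EB PND 30, control PND 100 and control PND 30 (symbols are replicates, lines are group means). Cxcl13, Jchain, Cd4, Pla2g2a and C4b are higher on all 3 EB PND 100 arrays than on all 4 EB PND 30 arrays, Uhrf1 at PND 100 is not well above background, and EB 1 of PND 30 is low for Gap43.

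Other large gains included Pla2g2a, a secreted phospholipase of acute inflammation. It lay at 0.07, 0.89 and 1.24 in EB PND 100, against -6.03, -4.27, -4.41 and -4.80 in EB PND 30 (ratio 5.61, SE 0.75, adjusted p 1.46e-04). It rose in controls too (3.79, adjusted p 0.00342). Scart1, a scavenger receptor of gamma-delta T cells in mice (4.49, SE 0.72, adjusted p 7.15e-04, and 2.65 with normexp), Slfn4, an interferon-induced myeloid gene in mice (4.06, SE 1.19, adjusted p 0.0329), and Ly6al, of the multigene Ly6 family (4.76, SE 1.46, adjusted p 0.0412), also rose. Scart1 was well above background on 1 of 4 young arrays, so its ratio is not exact. Ly6al lay at -6.11, 0.98 and -1.40, against -6.36 to -7.35, so EB 1 of PND 100 stood next to the young animals. Genes that rose from below background were the T cell adaptor Sh2d2a (at least 7.08-fold, adjusted p 0.00169), the GTPase regulator Arhgap30 (at least 5.84-fold, adjusted p 0.0139), the neutrophil chemokine receptor Cxcr2 (at least 5.20-fold, adjusted p 0.0358) and Fam24a (at least 4.99-fold, adjusted p 0.00638). In the basal and squamous list 1 of 20 genes rose, near the 5.51% of all genes. It was Bcl11b (2.82, SE 0.86, adjusted p 0.0398), a transcription factor that T cells also carry, at -6.13, -3.11 and -1.23 in EB PND 100. It thus ranked the 3 adults in the order of the T cell list.

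Nerve and ganglion genes had the largest loss, and it depended on which young animals were compared. Of 33 members 20 fell (median ratio -4.15), against 3.12% of all genes. The list median was -4.69, -7.05 and -4.69 on the EB PND 100 arrays, against -5.86, 0.17, -0.13 and -0.84 on EB 1, 2, 3 and 4 of PND 30. EB 1 of PND 30 was thus as low as the adults, and the other 3 were far higher. Without it 31 members were called lower. Without EB 2 or without EB 3 of PND 30 the count was 7, without EB 4 it was 10, and without EB 2 or EB 3 of PND 100 it was 4 and 9. Within slides the median was -0.68 (the slide that holds EB 1 of PND 30), -4.97 and -5.50. In controls 0 of 33 were called by limma, with 22 lower at an unadjusted p under 0.05 and a median of -2.46. The difference between EB and control ratios was called for 0 members (3 lower at an unadjusted p under 0.05).

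The growth cone protein Gap43 had the lowest ratio among genes with a symbol that were detected at both ages without overlap, at -4.69, -6.75 and -4.50 in EB PND 100 and -3.59, 0.56, 0.47 and -0.54 in EB PND 30 (ratio -4.54, SE 0.92, adjusted p 0.00433). Ret, the receptor of glial-derived neurotrophic factor, separated the ages with EB 1 of PND 30 included, at -4.41, -4.47 and -5.12, against -2.17, -1.46, -1.56 and -1.53 (ratio -2.99, SE 0.42, adjusted p 2.30e-04). The neuropeptide Vip lay at -9.27, -8.11 and -4.10, against -5.44, 2.27, 2.32 and 1.15 (ratio -7.23, SE 1.48, adjusted p 0.00442), so the groups overlapped through EB 1 of PND 30 and EB 3 of PND 100. The neuronal hydrolase Uchl1 (-4.15), the serotonin receptor Htr3a (-4.10), the vesicle priming factor Cadps (-3.97), the vesicular acetylcholine transporter Slc18a3 (-3.69) and the neuroendocrine secretory protein Scg5 (-3.60) fell (SE 0.77 to 0.86, adjusted p 0.00216 to 0.00767). With them fell Mmd2 (-3.69, SE 1.05, adjusted p 0.0273). The granin Chga of neuroendocrine cells (at least 9.19-fold lower, adjusted p 0.0263), the kinase Prkg2 (at least 22.8-fold, adjusted p 0.00577) and Sertm2 (at least 10.7-fold, adjusted p 0.00599) were below background in all 3 adults. Skeletal muscle markers also varied between the young EB arrays, with list medians of -4.58, 1.26, 1.37 and -1.50 on EB 1 to 4, against -1.71, -0.31 and -2.40 at PND 100. How much surrounding tissue contributed to the nerve values was not tested.

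In Aard and Dhrs2, EB 1 of PND 30 was as high as the other young arrays. Aard lay at -9.49, -9.70 and -9.73 in EB PND 100, not well above background, against -4.23, -4.29, -4.41 and -5.28 in EB PND 30, at least 9.02-fold lower (adjusted p 9.30e-04). It fell in controls as well (-3.84, adjusted p 0.00871). The dehydrogenase Dhrs2 lay at -5.37, -7.20 and -8.66, against -2.50, -4.91, -2.57 and -4.03 (ratio -3.57, SE 0.88, adjusted p 0.0135), and its ratio in controls was -0.81 (adjusted p 0.784).

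Secretory products did not change together. Of all genes, 3.12% were lower and 5.51% higher. Of 7 ventral prostate products 1 fell, the ribonuclease Rnase1 (-1.95, SE 0.59, adjusted p 0.0378), although the list median was -2.91. Without EB 1 of PND 100, 3 products were called lower, and 0 without EB 2 or EB 3 of PND 100 or without EB 1, 2 or 3 of PND 30. The adults were far apart, with list medians of 5.82, -4.12 and 1.15 on EB 1, 2 and 3 of PND 100, against 3.76, 4.44, 3.92 and 4.76 at PND 30. The steroid-binding Sbp lay at 6.58, -1.74 and 0.33, against 5.76, 4.83, 4.53 and 5.92 (ratio -3.54, SE 1.77, adjusted p 0.229). The secretoglobins Scgb1d4 (-4.03, SE 1.89, adjusted p 0.194) and Scgb1d2 (-3.82, SE 2.00, adjusted p 0.252) were likewise not called. EB 1 of PND 100, the array with the least immune signal, was the adult array with the most ventral product, and EB 2 and 3 had less than every young array. Of 13 dorsolateral products 1 rose, the kallikrein Klk1c10, at least 2.53-fold from below background (adjusted p 0.0368), with 2 of 3 adult arrays above background. The adults were far apart here too. The dorsolateral list median was 3.45, -3.78 and -3.70 on EB 1, 2 and 3 of PND 100, against -1.53, -0.79, -1.46 and -1.49 at PND 30. EB 1 thus lay above every young array, and EB 2 and 3 below every young array. Pbsn had a ratio of 1.03 (SE 0.33, adjusted p 0.0526) and overlapped between the ages by one young array.

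Hormone receptors showed no called change. Of 19 steroid receptors and coregulators 0 were called by limma (1 higher and 2 lower at an unadjusted p under 0.05). The estrogen receptors Esr1 (0.71, SE 0.44, adjusted p 0.358) and Esr2 (-0.09, SE 0.64, adjusted p 0.949) and the progesterone receptor Pgr (-0.05, SE 0.65, adjusted p 0.972) had no settled direction. The prolactin receptor Prlr was not called (-1.45, SE 1.12, adjusted p 0.474), and its ratio was below 0 under every alternative run. Of 30 androgen-responsive genes, the retinal oxidase Aldh1a3 rose (2.20, SE 0.70, adjusted p 0.0488) and the acyl-CoA carrier Dbi fell (-1.50, SE 0.33, adjusted p 0.00692). Of 28 estrogen-responsive genes 3 rose. Of all genes, 5.51% were higher and 3.12% lower. The growth regulator Myc lay at 0.13, 0.16 and 0.10, against -0.59, -1.03, -1.32 and -0.83 (ratio 1.07, SE 0.25, adjusted p 0.0107). Another was complement C3 (3.73, SE 0.95, adjusted p 0.0156), at -1.48, 3.11 and 2.92, against -2.01, -1.56, -3.04 and -2.26.

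Of 29 enzymes of steroid and retinoid metabolism 4 were higher and 1 lower, against 5.51% and 3.12% of all genes. The share that fell was thus near that of all genes. Steroid sulfatase (Sts), which frees steroids from their sulfates, lay at -2.57, -1.82 and -1.07 in EB PND 100, against -3.41, -3.31, -3.42 and -3.72 in EB PND 30 (ratio 1.65, SE 0.32, adjusted p 0.00357). The retinoic acid hydroxylase Cyp26a1 rose at least 4.55-fold from below background (adjusted p 0.00503), and its control ratio was 2.13 (adjusted p 0.00863). Hsd17b1, which makes estradiol from estrone, rose by 0.79 (SE 0.25, adjusted p 0.0454). Aldh1a3 is the other member that rose. The steroidogenic hydroxylase Cyp17a1 lay at -5.21, -0.02 and -3.45, against 2.35, -0.32, 1.70 and 0.33 (ratio -3.91, SE 0.95, adjusted p 0.0119), with EB 2 of PND 100 inside the young range.

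Epithelial, muscle and vessel markers gave few calls. Of 27 luminal genes, 26 smooth muscle genes, 18 endothelial genes and 37 branching and patterning genes, 0 were called by limma. At an unadjusted p under 0.05, 1 luminal gene was higher, 4 smooth muscle genes lower, 2 endothelial genes higher, and 4 patterning genes higher and 2 lower. Luminal keratin Krt8 had a ratio of -0.86 (SE 0.69, adjusted p 0.497), basal Krt5 -0.24 (SE 0.41, adjusted p 0.782) and the basal factor Tp63 0.88 (SE 0.34, adjusted p 0.110).

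Of 28 genes of DNA methylation and repressive chromatin 5 fell and 4 rose, against 3.12% and 5.51% of all genes. The gains were the less stable. None was called higher without EB 3 of PND 100 or without EB 3 of PND 30. Without EB 2 of PND 30, 1 was, and 2 were without any other single EB array of these ages. With 1 such array left out, 3 to 5 were called lower. Uhrf1, which brings the maintenance methyltransferase to replicating DNA, was at least 1.92-fold lower (adjusted p 0.00107), below background in all adults, and fell in controls by 2.97 (adjusted p 1.21e-04). The de novo methyltransferase Dnmt3a (-0.86, SE 0.21, adjusted p 0.0122), the nucleosome-binding Hmgn5 (-1.26, SE 0.29, adjusted p 0.00966), the heterochromatin protein Cbx3 (-0.51, SE 0.14, adjusted p 0.0199) and the demethylating Tet1 (-1.43, SE 0.46, adjusted p 0.0499) fell. Averaged over all its probes, Dnmt3a had a ratio of 0.13 (adjusted p 0.888). Among those that rose were the methyl-CpG reader Mbd1 (0.64, SE 0.18, adjusted p 0.0272) and the histone methyltransferases Setdb1 (0.64, SE 0.20, adjusted p 0.0443) and Suv39h2 (2.00, SE 0.63, adjusted p 0.0476). Tet1, Mbd1, Setdb1 and Suv39h2 were named after their values were seen. Hmgn5, which is known to respond to neonatal estrogens in mouse uterus and rat prostate, lay at -0.88, 0.18 and 0.06 in EB PND 100, against 1.34, 0.73, 1.19 and 0.92 in EB PND 30. In the controls it lay at 0.94 to 1.25 at PND 100 and at 0.82 to 1.06 at PND 30, and the difference of the ratios was -1.40 (adjusted p 0.291).

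Metabolic lists gave few calls, beside a background of 3.12% of all genes lower and 5.51% higher. Of 41 secretory pathway genes the signal peptidase subunit Sec11a fell (-0.76, SE 0.15, adjusted p 0.00387) and the translocation factor Sec63 rose (0.97, SE 0.21, adjusted p 0.00638). Sec63 rose in controls too (0.88, adjusted p 0.0176). Of 30 unfolded protein response genes Chac1 rose (0.89, SE 0.24, adjusted p 0.0201). Of 34 antioxidant genes the peroxiredoxins Prdx4 (-1.12, SE 0.24, adjusted p 0.00638) and Prdx1 (-0.84, SE 0.22, adjusted p 0.0191) fell. The isoprenoid enzyme Idi1 fell (-1.83, SE 0.56, adjusted p 0.0423), as 1 of 29 lipid synthesis genes, at 1.33, -1.53 and -1.27 in EB PND 100 and 0.84 to 1.74 in EB PND 30. The cholesterol and fatty acid synthesis list had a median ratio of -0.74, with 27 of 29 members below 0 and 8 lower at an unadjusted p under 0.05. Its median level was 1.46, -0.36 and -0.47 on EB 1, 2 and 3 of PND 100, against 0.54 to 1.41 at PND 30, so EB 2 and 3 lay below every young array. Without EB 1 of PND 100, 9 members were called lower, with slide as a block 4, and 0 without any other single array. The clock receptor Rora (0.77, SE 0.19, adjusted p 0.0135) and the lipase Lipe (1.43, SE 0.45, adjusted p 0.0469) rose as single members of their lists. Of 17 spermatid and epididymis genes 0 were called by limma, with 8 higher at an unadjusted p under 0.05. Their median ratio was 2.36, as high as in the T cell list, with 15 of 17 above 0, and 1.33 with members below background set at their bounds. The list median was -4.71, -7.93 and -7.23 on EB 1, 2 and 3 of PND 100, against -8.81 to -9.65 at PND 30. In the fit of only the EB and control arrays of these ages, 8 were called higher.

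The EB and control age changes were then compared directly, as EB ratio minus control ratio. limma called 5 probes (0.0214%), all higher in EB, and 0 lower, with 1534 genes higher and 427 lower at an unadjusted p under 0.05. Of the 5 probes, 3 are annotated in the files as immunoglobulin, named here after their values were seen. The probe for immunoglobulin heavy constant mu, the heavy chain of IgM, lay at 1.33, -0.58 and 5.42 in EB PND 100, against -8.99, -9.68, -7.99 and -10.0 in EB PND 30. It was at least 1031-fold higher and its difference from the control ratio was 9.50 (SE 1.55, adjusted p 0.0141). An Ig kappa chain probe was at least 175-fold higher (difference 9.09, SE 1.49, adjusted p 0.0141). An Ig kappa chain V region-like probe lay at 3.19, 1.17 and 5.54, against -3.79, -3.19, -3.91 and -4.40 (ratio 7.12, SE 0.78, difference 7.18, SE 1.10, adjusted p 0.0141). Probes of immunoglobulin segments may bind related transcripts. In all 3, every EB adult was above every young EB animal and every control.

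The other two were Sh2d2a (difference 4.81, SE 0.85, adjusted p 0.0277) and the noncoding LOC108353549 (difference 4.04, SE 0.70, adjusted p 0.0216). Apart from the V region-like probe, which all of these arrays detected, the probes were below background on every EB PND 30 array and on most or all control arrays, so their fitted differences are not exact. Over the alternatives, the lowest difference was 0.632 for LOC108353549, 1.40 for Sh2d2a, 5.10 for the kappa chain and 7.10 for heavy constant mu. Of their alternatives, 20 to 22 of 26 called each immunoglobulin probe, 13 of 25 called Sh2d2a and 15 of 25 LOC108353549. A fit of only the EB and control arrays of these ages called 0 genes, with 2001 at an unadjusted p under 0.05. Without EB 1 of PND 100, 431 genes were called, and 22 without EB 2. No gene was called without replicate 2 of control PND 100 or without replicate 1 of control PND 30. For the other immune genes the difference missed the threshold, with 2.08 for Cd4 (SE 0.41, adjusted p 0.0630) and 5.86 for Jchain (SE 1.19, adjusted p 0.0860).

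The 2 sets of calls shared mainly the losses. By sign alone, most gains went the same way too. Of the 1287 genes called higher in EB, 970 had a control ratio above 0. Of the 729 called lower, 700 had one below 0. Of the genes lower in EB, 227 were also called lower in controls, which is 31.1% of the EB and 65.8% of the control calls. Of the genes higher in EB, 69 were also called higher in controls, 5.36% of the EB and 38.5% of the control calls, and 0 were called in opposite directions. These comparisons share no arrays, but both take the spread of each gene from the same fit. The 2 sets of calls are therefore not independent.

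At PND 145 the EB animals, as a description, had T cell list medians of -5.84 to -5.26, back within or next to the range of EB PND 30. The B cell median was -7.06 to -5.73, overlapping the top of the EB PND 30 range. The myeloid median was -2.69 to -1.96, above the EB PND 30 arrays and below EB 2 and 3 of PND 100. The immunoglobulin heavy constant mu probe lay at -4.86 to -1.70 on the 4 arrays, above all EB PND 30 arrays and below all EB PND 100 arrays. The mitosis median was -5.35 to -3.93.

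**Figure D4:**
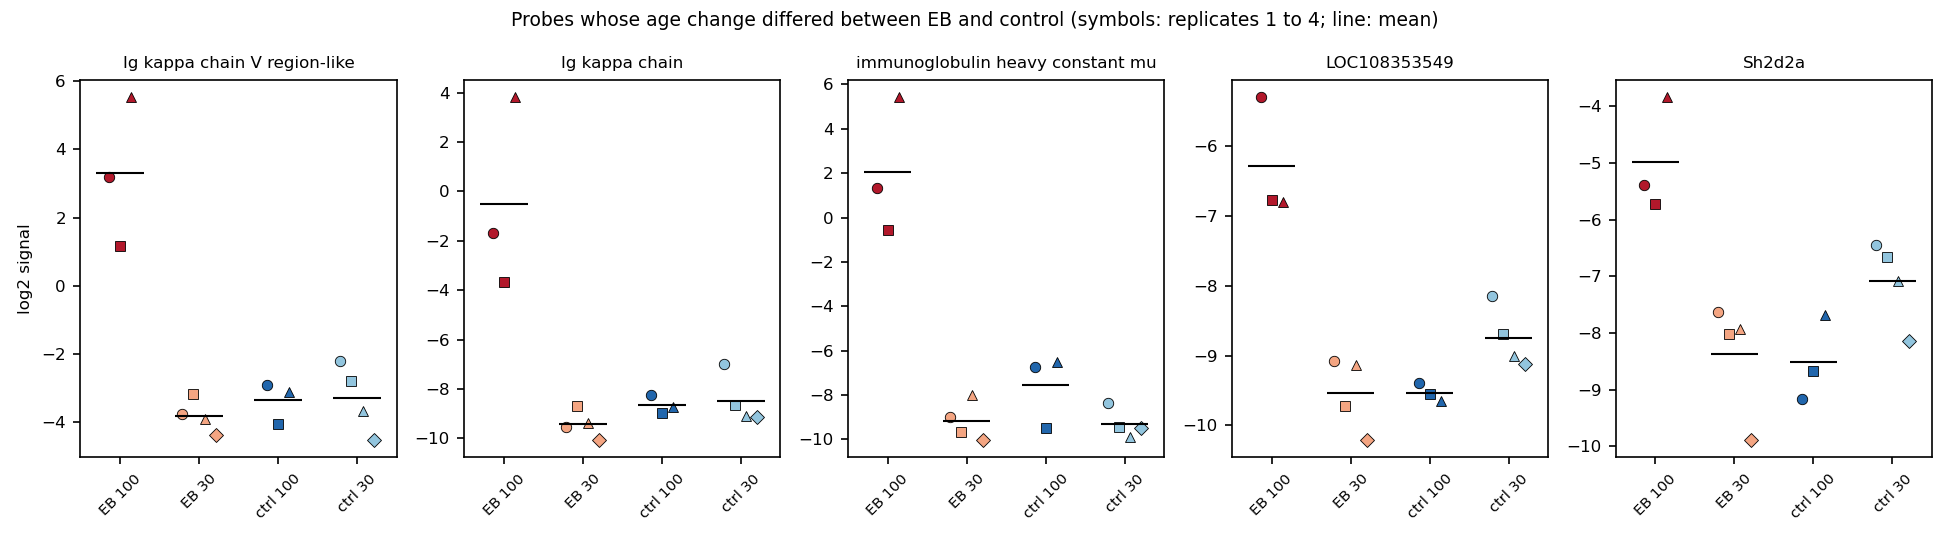
Log2 signal of the 5 probes whose PND 100 minus PND 30 ratio differed between EB and control, on each array of EB PND 100, EB PND 30, control PND 100 and control PND 30 (symbols are replicates, lines are group means). In every panel the 3 EB PND 100 arrays lie above all 4 EB PND 30 arrays.

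**Figure D5:**
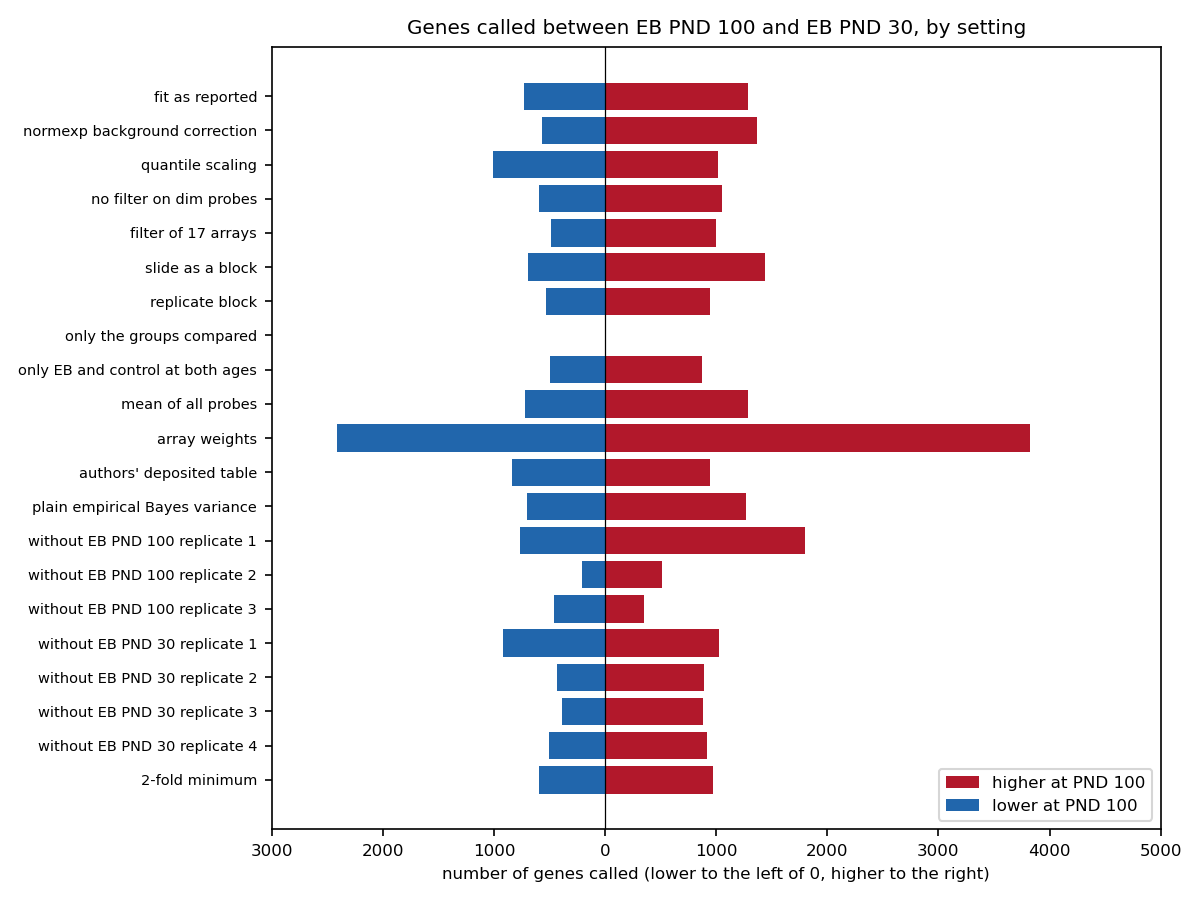
Number of genes called higher (red, right) and lower (blue, left) between EB PND 100 and EB PND 30 under each setting. The count was 6 where only the 7 EB arrays were fitted and 6238 with array weights.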

How the data were processed

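RNA was measured on 1-colour Agilent rat arrays. The deposited scanner files hold spot intensity, background-subtracted by Agilent Feature Extraction 12.0.0.7 (protocol GE1_1200_Jun14), per the file headers. The authors' deposited value table was set on a log2 scale only as an alternative. From the scanner files, log2 processed intensity minus that of the array's 75th percentile was computed, outlier spots and controls were left out, spots of a probe were averaged, and a probe was kept if 3 or more of the 33 arrays detected it well above background. The brightest probe stood for a gene, giving 23345 genes, of which 16398 have a RefSeq symbol. limma 3.58.1 in R 4.3.3 fitted all 10 groups with trended, robust empirical Bayes, and p-values were Benjamini-Hochberg adjusted over all genes. "At least" folds compare the bright group's mean with the higher of each dim array's detection floor and its own signal. Each p-value reflects only how these samples vary, which may be partly technical, and the number of arrays limits precision.

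Members and gene lists were chosen with earlier results of these data known. Genes named are the 10 highest and 10 lowest ratios without overlap, the 4 largest bounds each way, up to 4 members per list with the smallest p, difference calls, and a set of receptors and markers. Other members called in a list of few calls, and probes without a symbol, were named after their values were seen. Promoters are RefSeq, build GRCr8, while the array grid names build rn4. Some results are not reported here. The fit was tested on simulated data. Alternatives changed the background correction, scaling, filter, probe rule, blocks, weights, variance prior and arrays fitted.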

Additional observations from a re-analysis of the deposited data

Results flagged for a closer look

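Among the 4 EB PND 30 arrays, single values stood far from the others of their group. Chance flags about 1 in 20 groups. Of those tested, 7 of 113 genes and 4 of 37 lists were flagged, so the gene flags are near the chance rate. EB 1 was high for Mcm6, at -0.891 against -2.05 to -1.91, and for Nusap1, at -0.557 against -1.30 to -1.21. EB 1 was low for Ret, at -2.17 against -1.56 to -1.46, for Vip, at -5.44 against 1.15 to 2.32, and for Chac1, at -5.62 against -5.12 to -5.04. EB 4 was low for Arhgap30, at -9.81 against -7.93 to -7.68. EB 2 was low for Sec11a, at 2.46 against 2.77 to 2.82. Among list medians, EB 1 stood apart for nerve and ganglion genes, at -5.85 against -0.835 to 0.169, and for steroid and retinoid metabolism, at -2.46 against -2.73 to -2.71. EB 2 stood apart for dorsolateral products, at -0.788 against -1.53 to -1.46, and EB 4 for myeloid genes, at -3.34 against -2.82 to -2.76.

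The age change differed between EB and control animals, by the test of the difference itself, for 5 probes. The differences were 7.18 for the Ig kappa chain V region-like probe, 9.09 for the Ig kappa chain probe, 9.50 for immunoglobulin heavy constant mu, 4.04 for LOC108353549 and 4.81 for Sh2d2a. All but the first rest on signals below background on the EB PND 30 arrays and are not exact. Their lowest values over the alternatives were 5.10, 7.10, 0.632 and 1.40, in the same order.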

How the results depend on the processing

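The number of genes called between EB PND 100 and EB PND 30 was 2016. It was 6 where only these 7 arrays were fitted, 6238 with array weights, and 725 (without EB 2 of PND 100) to 2567 (without EB 1 of PND 100) when 1 array was left out, with 811 without EB 3 of PND 100 and 1325 and 1270 without EB 2 or EB 3 of PND 30. The control count of 524 became 2243 in a fit of the control groups alone, 4642 with array weights, and 292 to 437 with 1 array left out. The count of 5 for the difference was 1 with normexp, 2 with quantile scaling, 3 with the filter of 17 arrays, 19 with slide as a block, 0 in a fit of only the groups compared, 1523 with array weights, and 0 to 431 with 1 array left out. Fits of fewer arrays hold fewer samples and take the spread from those arrays alone. The median SD of a gene was 0.51 in EB PND 100 and 0.43 in EB PND 30. It was 0.26 and 0.30 in the controls of these ages. The cause of the changed counts was not tested. With the replicate block, 1475 genes were called in EB, 461 in controls and 5 for the difference, and of the lists 13 T cell, 11 myeloid and 0 blood genes. Same-numbered arrays had deviations that correlated at 0.118, 0.003 and 0.259, so the numbers were not taken as pairs. Signs reversed for Dnmt3a with the mean of all probes (0.13), Esr1 with array weights (-0.19), Esr2 with normexp (0.10) and array weights (0.20), Pgr with normexp (0.29) and slide as a block (0.083), and Hoxb13 with quantile scaling (-0.024) and the authors' deposited table (-0.028). With 1 array left out, Esr2 ranged from -0.45 to 0.31, Pgr from -0.82 to 0.44 and Hoxb13 from -0.38 to 0.55.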
